A study of Mus musculus with 20 samples.

Results

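Expression of 9 genes of the renin-angiotensin system was described in single podocytes, which cover the outer face of the glomerular capillary with interlocking foot processes. The 9 genes were Agt, Ren1, Ace, Enpep, Mme, Agtr1a, Agtr1b, Agtr2 and Mas1, taken by gene symbol from the 39179 genes of the authors' deposited table. All 9 were in the table; 2 symbols were spelled as here and 7 differed in upper or lower case. The study sequenced RNA of 20 podocytes from 1 male wild-type mouse aged 8 weeks, given as C57BL/6 in the design text and as C56BL/6 in the sample labels. Glomeruli were concentrated with magnetic beads and dissociated enzymatically, and each cell was lysed and its cDNA made in a well of a Fluidigm C1 instrument. The 20 cells are 1 untreated group from 1 animal, so no groups were compared, no p-value is given, and each SD is the spread between cells of that mouse. Cells are named by replicate number, 1 to 20.

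The renin-angiotensin system is a cascade of secreted and membrane-bound proteins that sets blood pressure and the tone of the glomerular vessels. Renin cuts angiotensinogen to angiotensin I, angiotensin-converting enzyme turns this into angiotensin II, and angiotensin II acts on the type 1 and type 2 receptors. Aminopeptidase A, encoded by Enpep, removes the first residue of angiotensin II, and neprilysin, encoded by Mme, cuts angiotensin I to a shorter peptide that acts on the Mas receptor. Both enzymes are membrane peptidases known from the podocyte surface and from the brush border of the proximal tubule.

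Of the 9 genes, 3 were found in at least 1 cell, where found means a level of 1 RPKM or more (reads scaled by gene length and by the reads of the cell). They were Enpep in 20 cells, Mme in 17 and Agtr1a in 4. Over all genes of the table, 30.0% were found in at least 1 cell and 0.664% in every cell; over 21226 protein-coding genes the shares were 46.5% and 1.11%. Agt had 2 reads in a single cell, and the other 5, namely Ren1, Ace, Agtr1b, Agtr2 and Mas1, had no read in any cell. A complete lack of reads was also seen for 59.5% of all genes and 41.8% of the protein-coding ones, so that 5 of 9 lies between the backgrounds. A cell held 2 of the 9 genes in 13 cases, 3 in 4 cases and 1 in 3 cases.

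**Figure D1:**
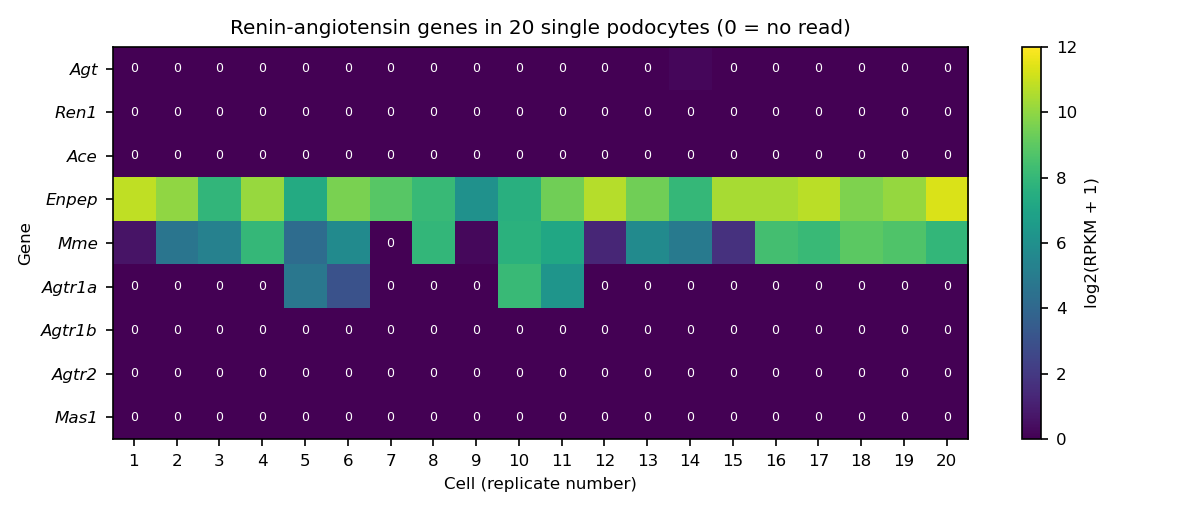
Level of the 9 genes (rows) in each of the 20 cells (columns), as log2(RPKM + 1) on the colour scale; a 0 marks a cell with no read. Enpep is coloured in all 20 cells, Mme in most of them, Agtr1a in cells 5, 6, 10 and 11, and the other rows are empty but for 2 reads of Agt in cell 14.

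The promoter windows of Enpep and Mme are shown because these were the 2 members that most cells held, and because Mme has several annotated starts whose transcripts a value per gene cannot tell apart. The windows are from RefSeq, build GRCm38.p6, run 5′ to 3′ in the direction of the gene, and hold 250 bases before to 50 after an annotated start. First and second number the Mme windows in RefSeq and not all starts of the gene. In GENCODE, Mme begins upstream of both, at 63241537, and no window of that start is shown. Capitals mark 4 common promoter motifs searched on both strands: the TATA box (TATANA), the GC box (GGGCGG), the CCAAT box (CCAAT) and the AP-1 motif (TGANTCA).
Enpep, chr3:129332700-129332999, minus strand: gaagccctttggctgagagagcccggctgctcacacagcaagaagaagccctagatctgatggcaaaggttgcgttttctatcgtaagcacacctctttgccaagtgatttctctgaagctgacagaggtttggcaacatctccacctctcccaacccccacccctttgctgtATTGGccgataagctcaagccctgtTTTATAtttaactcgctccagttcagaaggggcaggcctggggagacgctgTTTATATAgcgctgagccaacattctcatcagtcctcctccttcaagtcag
Mme, first start, chr3:63294961-63295260, plus strand: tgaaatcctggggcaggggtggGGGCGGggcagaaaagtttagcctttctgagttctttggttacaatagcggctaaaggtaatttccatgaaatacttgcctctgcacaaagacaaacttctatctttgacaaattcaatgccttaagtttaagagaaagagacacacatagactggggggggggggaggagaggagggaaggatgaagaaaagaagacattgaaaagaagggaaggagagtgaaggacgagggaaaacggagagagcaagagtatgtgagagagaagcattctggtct
Mme, second start, chr3:63295622-63295921, plus strand: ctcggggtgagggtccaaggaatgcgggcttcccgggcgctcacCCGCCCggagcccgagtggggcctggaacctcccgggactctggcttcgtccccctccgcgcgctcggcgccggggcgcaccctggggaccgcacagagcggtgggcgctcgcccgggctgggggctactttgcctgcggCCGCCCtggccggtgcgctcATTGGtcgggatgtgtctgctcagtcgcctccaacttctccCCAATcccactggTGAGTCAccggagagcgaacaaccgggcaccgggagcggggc
The Enpep window held 3 TATA box matches, which start at -52, -1 and 2 relative to the RefSeq start, and 1 CCAAT box. Its GC content was 51.3%. GENCODE ends this minus-strand gene at 129332720, inside the window, so the positions would differ relative to that start. A TATA box match was present in 24.7% and a CCAAT box in 37.4% of all 32851 windows. The first Mme window held 1 GC box and had a GC content of 46.0%, whereas the second held 2 GC boxes, 2 CCAAT boxes and 1 AP-1 motif at a GC content of 73.0%. GC boxes were present in 35.7% and AP-1 motifs in 7.81% of all windows. The TATA box matches at -1 and 2 overlap each other. The window of another Mme start overlaps the second. Of letters bound by podocyte factors, GNGGGNG of the WT1 type had 1 match in the Enpep window, 9 matches, most of them overlapping, in the first Mme window and 3 in the second, and was present in 64.7% of all windows. TAATTA of the LMX1B type and CAGCTG of the TCF21 type had no match in these 3 windows; they were present in 5.29% and 16.3% of all windows. A match is a run of letters and not a binding site, and the expression values do not bear on its use.

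Podocyte markers were present in every library, and in 6 of them many markers of a second cell type were present too. Each cell held 15 or 16 of 16 podocyte markers. Of 14 mesangial and mural markers, cells 5, 6, 10, 11 and 14 held 8 to 11 and every other cell 1 or 2, where Mylk was found in all 20 cells. Cell 8 held 12 of 16 endothelial markers and no other cell more than 7. Proximal tubule markers, which matter here because that segment also makes Enpep and Mme, were at or near 0, with 13 of 14 below 1 RPKM in all cells and 11 without a read; Cyp2e1 reached 4.90 RPKM in cell 14. The levels, counts and correlations of Enpep, Mme and Agtr1a are also given without these cells. The sources used here do not say how the 20 cells were chosen or whether wells with more than 1 cell were removed. Reads assigned to genes ranged from 4205562 to 10448491 per cell, with a median of 6753753, and genes found from 2371 to 4977.

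On the deposited RPKM scale, Enpep was among the most abundant transcripts of these cells. Aminopeptidase A (chromosome 3, 129269175 to 129332720, minus strand, build GRCm38) averaged 914 ± 674 RPKM (SD over 20 cells). The lowest level was 67.0 RPKM in cell 9, the median 785 RPKM and the highest 2541 RPKM in cell 20, a range of 37.9-fold. Behind these values stood 1311 to 38975 reads per cell, with a median of 11381; noise from capture and amplification was not measured. Its median ranked 62nd among the 39179 genes, above the medians of 11 of the 16 podocyte markers. This place rests on the 2126 bases behind the deposited values. With the longest transcript, 4181 bases, the median was 399 RPKM, and no rank was computed on that scale. Within single cells the rank of Enpep by deposited RPKM ran from 23 in cell 20 to 1207 in cell 9. Enpep was found in 20 of 20 cells, for which the exact 95% binomial interval is 83.2% to 100%. The interval covers counting error only, since the cells share 1 animal and how they were chosen is not given.

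The spread of Enpep was not unusual for its level, and its highest values lay outside these 6 cells. The coefficient of variation (SD divided by mean) was 0.738, against a median of 0.881 for the 200 genes nearest in mean, and 32.5% of those genes had a lower one. Levels of 1000 RPKM or more were seen in 9 cells, namely cells 1, 2, 4, 12, 15, 16, 17, 19 and 20. In cells 5, 6, 8, 10, 11 and 14, which held 8 or more mesangial and mural or 12 endothelial markers, Enpep lay between 159 and 757 RPKM. In the other 14 cells it lay between 67.0 and 2541 RPKM, so that the ranges overlapped. The median of Enpep was 262 RPKM in the 6 cells and 1112 RPKM in the other 14. The summed level of the podocyte markers ranged from 8808 to 15735 RPKM in cells 5, 6, 10 and 11. It stood at 10178 and 12833 RPKM in cells 14 and 8, and ranged from 11047 to 29748 RPKM in the other 14. Col4a3 had the highest median of these markers, 3895 RPKM, and made up 20582 of the 29748 RPKM in cell 12. The part of the second cell type in the Enpep level was not tested.

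Mme was lower than Enpep and uneven. Neprilysin (chromosome 3, 63241537 to 63386030, plus strand) averaged 142 ± 157 RPKM (SD over 20 cells), and its median of 52.9 RPKM ranked 699th. It was found in 17 of 20 cells, with an exact 95% binomial interval of 62.1% to 96.8%, again for counting error only. The top level was that of cell 18, at 507 RPKM, and cells 19 and 16 followed at 413 and 336 RPKM. Cell 7 had no read and cell 9 had 7 reads, or 0.179 RPKM; cells 1, 12 and 15 stood at 0.552, 1.43 and 2.24 RPKM, with 15, 49 and 40 reads.

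The cells thus fell on either side of a wide gap in Mme. In 15 cells it lay at 18 RPKM or more, with 602 to 13220 reads, and in the remaining 5 at 2.24 RPKM or less. In cell 7 a level of up to 0.104 RPKM, the value of 3 reads, could have been missed; such limits cover counting error only, since amplified reads are not independent molecules. The 5 low cells had between 2371 genes found in cell 12 and 3052 in cell 15, and all were among the 14 cells with at most 2 mesangial and mural and 3 endothelial markers. Loss of a transcript at capture or amplification and lack of expression cannot be told apart in these values. Mme was found in all 6 cells with many mesangial or endothelial markers, at 18 to 247 RPKM, and in 11 of the other 14. Its coefficient of variation of 1.10 was below that of most genes of its level, with 18.5% of the 200 nearest genes lower and a median of 1.48 among them.

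**Figure D2:**
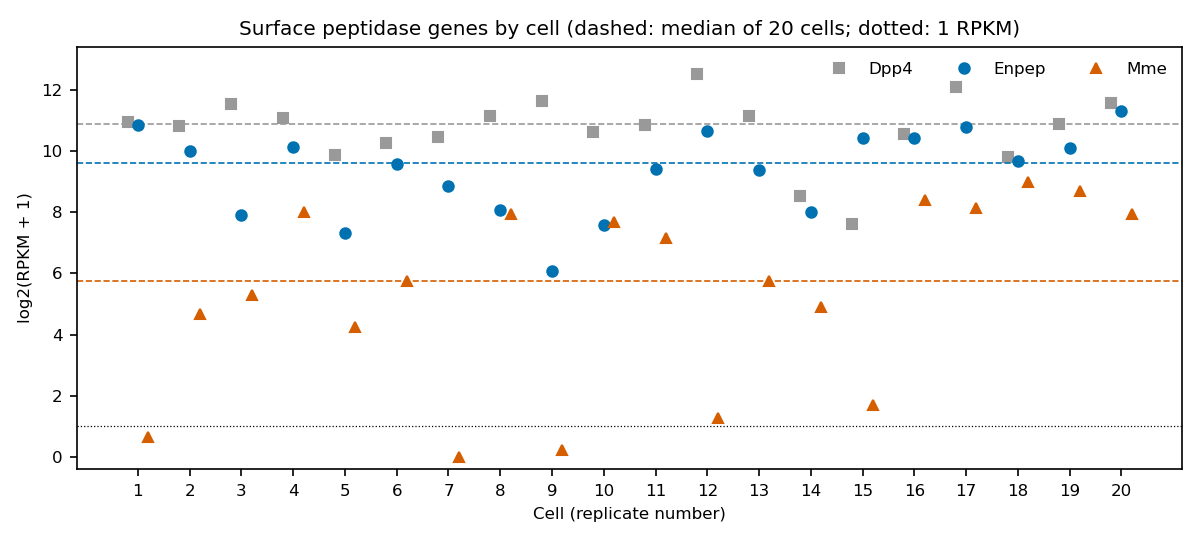
Level of Dpp4 (squares), Enpep (circles) and Mme (triangles) in each cell, as log2(RPKM + 1); dashed lines are medians over the 20 cells and the dotted line is 1 RPKM. Enpep lies above Mme in 19 cells, and Mme drops to 2.24 RPKM or less in cells 1, 7, 9, 12 and 15.

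Enpep exceeded Mme in 19 of 20 cells, on the per-length RPKM scale. The exception was cell 10, at 189 RPKM for Enpep and 203 RPKM for Mme. Enpep also exceeded Mme in 19 cells when each value was rescaled to the gene's longest annotated transcript. Those lengths were 4181 bases for Enpep and 8039 for Mme, in place of the 2126 and 4240 bases behind the deposited values. Both genes were rescaled by a similar factor, so this could hardly change their order. Across the 20 cells the levels of Enpep and Mme had a Spearman correlation of 0.23, given as a description, since the cells share an animal and differ in depth. Enpep had a correlation of -0.32 and Mme one of 0.26 with the number of genes found per cell over the 20 cells. Without the 6 cells with many mesangial or endothelial markers these values were 0.03 and 0.40, and that of Enpep with Mme was 0.17, so the negative value for Enpep rested on those cells.

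Among genes set beside Enpep by the rank order of their levels over the 20 cells, the 3 closest of 3988 included Pak1 (0.62) and Metrnl (0.62). For Mme they were Taf4 (0.75), Nop53 (0.74) and Fyn (0.73). The numbers are Spearman correlations, each among the 3 highest of 3988. Pak1 was found in all 20 cells, Metrnl in 19 and Fyn in 12, whereas Taf4 and Nop53 were found in only 5 and 8 cells, so that the likeness partly ranks zeros.

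The precursor Agt stayed below 1 RPKM, and the 2 enzymes that make angiotensin II from it, Ren1 and Ace, had no read. Agt, angiotensinogen (chromosome 8, 124556534 to 124569706, minus strand), had 2 reads in cell 14, or 0.172 RPKM, and none in the other 19 cells. Ren1, the renin gene (chromosome 1, 133350510 to 133360325, plus strand), had no read in any cell. With the mean length of its annotated transcripts, 903.5 bases, 3 reads would have stood for 0.318 to 0.790 RPKM in a cell. Ace, angiotensin-converting enzyme (chromosome 11, 105967945 to 105989964, plus strand), likewise had no read, at a limit of 0.0984 to 0.245 RPKM. For a gene found in 0 of 20 cells, the exact 95% binomial interval of the share of such cells at 1 RPKM or more reaches 16.8%, and the limit of 3 counts is 15%; both cover counting error only.

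The neighbourhood of Ace was checked, because reads that fall on overlapping genes may be left uncounted. The opposite-strand gene Gm11651 overlaps 5.58% of the exonic bases of Ace, and no exon of the other 8 genes overlaps another gene's exon in the annotation. Juxtaglomerular markers, the setting in which renin is made, were low as well: of 7, 4 had no read, among them Akr1b7, Myh11 and Tagln, and Nrip2, found in 10 cells, reached at most 14.9 RPKM. Rgs5, which pericytes and mesangial cells share, had 126 to 397 RPKM in cells 5, 6 and 10.

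Agtr1a was the only 1 of the 4 receptor genes with reads, and in these 20 libraries its reads lay in 4 cells. The type 1a receptor (chromosome 13, 30336441 to 30382867, plus strand) is the main angiotensin II receptor of the mouse kidney. Its levels in cells 5, 6, 10 and 11 were 25.9, 7.13, 279 and 76.3 RPKM, resting on 294, 62, 2286 and 687 reads. No read was seen in the other 16 cells, where 3 reads would have stood for at most 0.528 RPKM. The share of 4 of 20 cells has an exact 95% binomial interval of 5.73% to 43.7%, and cell 10 alone held 71.8% of the summed level. That interval covers counting error only, for cells of 1 animal chosen in a way not given.

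The 4 cells were 4 of the 5 that held many mesangial and mural markers. They held 9 to 11 of the 14 markers, with a summed level of 3021 to 5752 RPKM, and cell 14, which lacked Agtr1a, held 8, with 2226 RPKM. The remaining 15 cells held 1 or 2, with 15 to 914 RPKM in 14 of them and 560 RPKM in cell 8. These sums include Mylk, which was found in all 20 cells at 14.2 to 914 RPKM. In cell 17, which had the sum of 914 RPKM, Mylk alone stood at 914 RPKM. Gata3, which encodes a zinc finger factor of the mesangium, had 1550, 1162, 1325 and 693 RPKM in cells 5, 6, 10 and 11 and 733 RPKM in cell 14. Itga8, an integrin subunit of mesangial cells, lay at 831, 245, 587 and 919 RPKM in those 4 and at 94.8 RPKM in cell 14. Pdgfrb, a growth factor receptor gene of mesangial and mural cells, did not follow the same cells: it had 1.40, 56.4, 92.8 and 29.6 RPKM in those 4, no read in cell 14, and 6.34 and 84.4 RPKM in cells 8 and 13, which lacked Agtr1a. Des, the muscle intermediate filament gene, was highest in cell 10, at 154 RPKM, as was Agtr1a. Acta2 was below 1 RPKM in all 20 cells and Tagln was without a read. Other features moved with Agtr1a as well. The 4 cells held 4 to 7 of the 16 endothelial markers, against 5 in cell 14, 12 in cell 8 and 1 to 3 in the other 14. Cells 10, 11 and 5 had the most genes found, at 4977, 4536 and 4092, and cell 6 had 3425, where the median was 3306. The same 4 cells held all 16 podocyte markers, so both sets of transcripts were present in each library. Whether the transcripts came from the podocyte or from a second cell in the well was not tested.

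**Figure D3:**
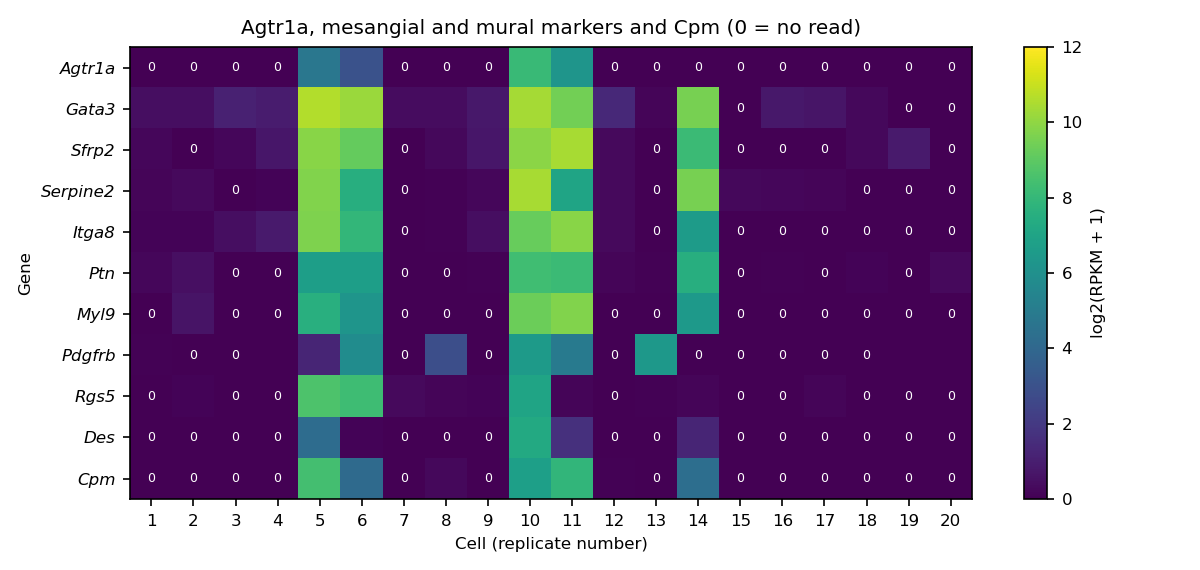
Level of Agtr1a, of 9 mesangial and mural markers and of Cpm (rows) in each cell (columns), as log2(RPKM + 1); a 0 marks a cell with no read. Agtr1a is coloured in cells 5, 6, 10 and 11, within the 5 columns, cell 14 included, in which Gata3 lies at 693 RPKM or more.

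A pair of other genes shared this pattern in part, and they were picked after their values were seen. Rgs2, a brake on the G protein that the type 1 receptor uses, lay at 228, 425, 636 and 1035 RPKM in cells 5, 6, 10 and 11, at 6.04 RPKM in cell 18, and below 1 RPKM in the other 15. Cpm, a membrane carboxypeptidase, was found in cells 5, 6, 10, 11 and 14, at 339, 16.8, 108, 234 and 19.4 RPKM, and in no other. Of 911 genes found in exactly 4 cells, Agtr1a and 7 others were found in cells 5, 6, 10 and 11. The 7 were Cd53, Cp, Marcks, Mrc1, Pcp4l1, Tmem131 and Zfp949.

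The other angiotensin receptors had no read in any of the 20 libraries. Agtr1b, the second type 1 receptor gene of rodents (chromosome 3, 20314473 to 20367177, minus strand), had a limit of 0.152 to 0.377 RPKM. Of its distinct 50-base stretches of transcript, 1.54% also occur in Agtr1a transcripts. Agtr2, the type 2 receptor gene (chromosome X, 21484544 to 21489164, plus strand), had a limit of 0.160 to 0.397 RPKM. Mas1, the receptor for angiotensin-(1-7) (chromosome 17, 12841079 to 12868143, minus strand), had one of 0.218 to 0.541 RPKM. These limits use the mean annotated transcript length, because no length can be read from genes without reads.

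Of 23 further genes of the system, none was found in every cell, 9 in some cells and 14 in none, of which 13 had no read; over all genes 30.0% were found in at least 1 cell and 59.5% had no read. The highest median was that of Igf2r, a sorting receptor that also binds prorenin, at 22.3 RPKM and found in 16 cells. Ctsd, a lysosomal aspartic protease related to renin, reached 1 RPKM in 11 cells; its median level was 1.89 RPKM and its peak 999 RPKM in cell 12. Atp6ap2, the prorenin receptor and a proton pump accessory, did so in 9 cells, and its level had a median of 0.616 RPKM and a peak of 1108 RPKM in cell 3.

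The genes without a read included alternative makers and breakers of angiotensins. Among them were Cltrn, the chymase and mast cell or granule proteases Cma1, Mcpt4, Ctsg and Cpa3, kallikrein Klk1, aminopeptidase N (Anpep), Prcp, Thop1, the meprins Mep1a and Mep1b, and the receptor Mrgprd. Dpp3 was below 1 RPKM, with 5 reads over the 20 cells. Of 12 immune markers 9 had no read, and Fcer1g, at 495 RPKM in cell 5, was the only one above 1 RPKM. Agtrap, a protein that binds the type 1 receptor, was found in cells 2, 9, 10 and 16, with up to 176 RPKM in cell 16; of these, cell 10 held Agtr1a.

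Enpep and Mme were each found in more cells than any other gene of their enzyme family. In the M1 family of aminopeptidases, Enpep was the only 1 of 11 genes found in every cell at 1 RPKM or more, against 0.664% of all genes. Aopep, listed in the table under an older symbol, followed with 19 cells and a median level of 157 RPKM, and had reads in all 20. Npepps, a cytosolic aminopeptidase, was next with 9 cells and 0.632 RPKM. Lnpep, the insulin-regulated aminopeptidase known to bind angiotensin IV, was found in 6 cells, and Anpep and Lvrn had no read. In the M13 family, Mme was found in 17 cells, Ece1, an endothelin-converting enzyme, in 8, and Phex in 2. Ece1 reached 1004 RPKM in cell 8, which held 12 endothelial markers. It stood at 208 and 175 RPKM in cells 16 and 1, which held 1 and 3 of them. Ecel1 and Kel had no read. These counts describe 1 animal's cells and carry no test.

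Dpp4, a serine dipeptidyl peptidase of the cell surface that trims incretins, was the only 1 of 14 genes in the list of other surface peptidases found in all 20 cells. Over all genes the share found in every cell was 0.664%. Dpp4 averaged 2089 ± 1338 RPKM (SD over 20 cells) and its median of 1874 RPKM ranked 26th. Cell 15, at 193 RPKM, was lowest and cell 12, at 5875 RPKM, highest. It lay above Enpep in 19 of 20 cells, cell 15 being the exception. That order depended on gene length: with the longest transcripts, 5268 bases for Dpp4 against 1361 behind the deposited values, Dpp4 lay above Enpep in 10 cells. Of the same 14 genes, 4 had no read, namely Fap, Ggt1, Dpep1 and Folh1, where the share over all genes was 59.5%. Ermp1, in this list although its name is that of an endoplasmic reticulum metallopeptidase, reached 1 RPKM in 17 cells. Its median level was 5.78 RPKM. Cpd, a carboxypeptidase of the secretory route, did so in 13, and its median level was 8.76 RPKM.

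**Figure D4:**
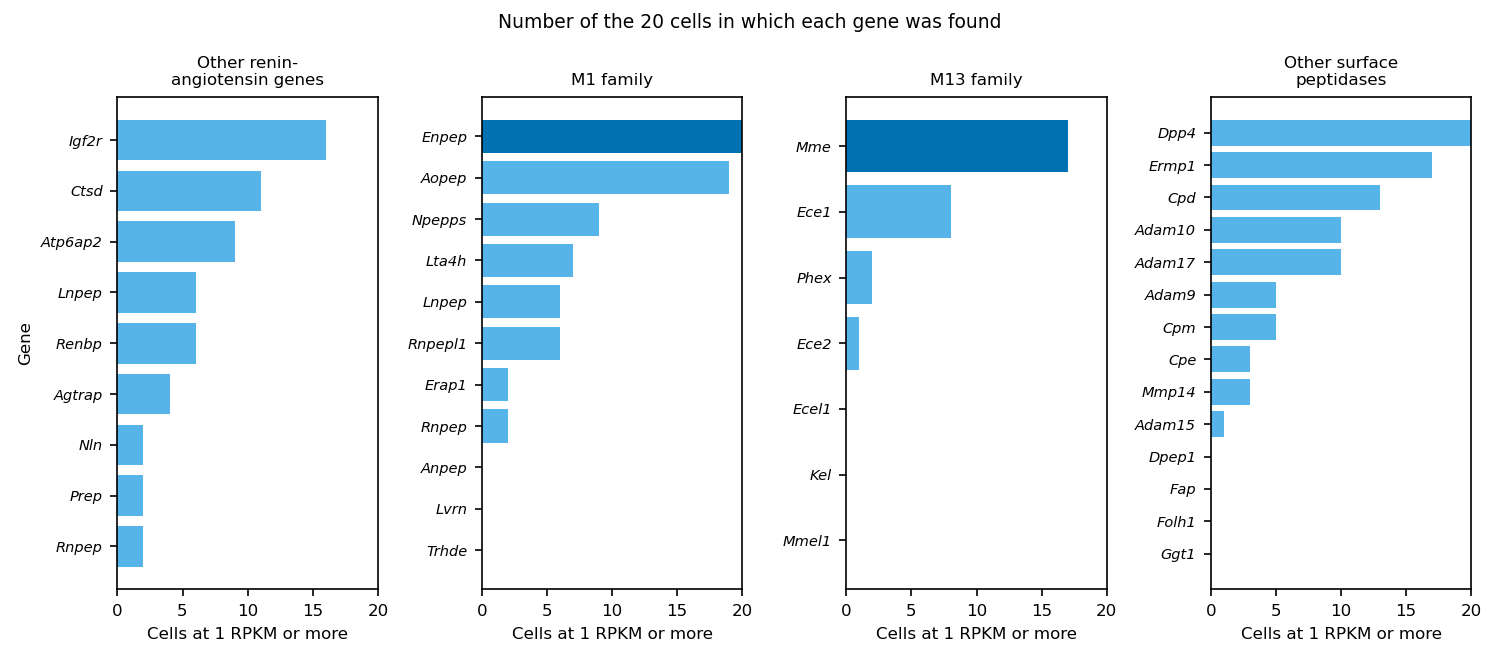
Number of the 20 cells in which each gene reached 1 RPKM, by gene list; dark bars are Enpep and Mme, the first panel shows the 9 of 23 other renin-angiotensin genes found in at least 1 cell, and genes without a bar in the others were found in no cell. Enpep at 20 and Mme at 17 lead their families, and Dpp4 at 20 leads the other surface peptidases.

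Genes that act below angiotensin receptors ranged from every cell to none. Of 36 such genes, 1 was found in every cell, 30 in some and 5 in none. Over all genes, 0.664% were found in every cell and 30.0% in at least 1 cell. The small GTPase Rhoa was in every cell, at 169 ± 119 RPKM (SD over 20 cells) and 2.44 RPKM at the lowest. Its effectors Rock1 and Rock2 were found in 18 cells each, with medians of 84.8 and 50.4 RPKM, and Rac1 in 19 with a median of 52.6 RPKM. Gnaq, the G protein subunit coupled to the type 1 receptor, reached 1 RPKM in 13 cells (median level 3.85 RPKM), and Arrb1, a beta-arrestin, in 14 (median level 4.31 RPKM). Nox4, an oxidase induced by angiotensin II in kidney cells, reached 1 RPKM in 10 cells and at most 6.79 RPKM. The channel genes Trpc5 and Trpc6 had no read. The median gene of this list was found in 4 cells, and the median protein-coding gene in 0.

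Neprilysin also cuts kinin and endothelin peptides. Of 11 kinin and endothelin genes, 7 had no read, among them both bradykinin receptor genes, Bdkrb1 and Bdkrb2; over all genes the share without a read was 59.5%. Edn1 reached 5 RPKM in cell 14, and Ednrb 1.47 RPKM in cell 8, the cell with endothelial markers. Edn1 had reads in cell 14 only, so its recovered 9 reads are the smallest count possible and the true count could be a multiple. Ednra, the type A endothelin receptor gene, had reads in 7 cells and at most 0.431 RPKM.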

How the data were processed

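The authors' deposited table gives RPKM for 39179 genes in 20 single cells. The submitters' processing notes name TopHat2 2.0.12 and HTSeq 0.6.1 with GRCm38; no source used here gives settings or strand. A single blank value was read as 0, and 37607 IDs were in GENCODE M21. The 9 genes and the lists were chosen with earlier results of these data known.

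Read totals were recovered from ratios of low values between cells and scaled with 1184 genes of a single annotated transcript. Reads per gene used the smallest whole-base length giving whole reads in every cell (tolerance 1e-05), or a multiple of it within 1 base of the mean transcript length, so the true reads of a gene could be a multiple of those given. The recovery was tested on simulated data. No test between groups was run, as there is 1 group.

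Named genes outside the 9 were those of each list found in every cell, its 3 highest medians, renin-angiotensin genes without reads, and the 3 closest by Spearman correlation among genes with a mean of 10 RPKM or more found in at least 5 cells; others were chosen after their values were seen. Ace3 was not analysed here. A few genes and a motif that these rules would name are not reported here. Python 3.11.15, pandas 2.3.3 and scipy 1.17.1 were used. Other settings tried were 2 other detection limits (above 0, and 5 RPKM), cells scaled to a common sum, longest-transcript lengths, other correlation measures, and omission of cells 5, 6, 8, 10, 11 and 14.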

Additional observations from a re-analysis of the deposited data

How the results depend on the processing

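Under all alternatives run, 1 of the 9 genes was found in every cell. The number found in at least 1 cell was 4 above 0 RPKM, where Agt is added, and 2 without the 6 cells with mesangial or endothelial markers, where Agtr1a is lost. The median of Enpep was 1331 RPKM when each cell was rescaled, 399 RPKM with the longest transcript and 1112 RPKM without the 6 cells; that of Mme was 88.8, 27.9 and 45.6 RPKM. Mme was found in 19 cells above 0 RPKM and in 15 at 5 RPKM or more. The correlation of Enpep and Mme ranged from 0.17 to 0.34. Above 0 RPKM, 2 genes of the M1 family and 2 of the list of other surface peptidases, Dpp4 and Ermp1, were in every cell, against 1 each at 1 RPKM. Of the genes below angiotensin receptors, 5 were in every cell above 0 RPKM and 0 at 5 RPKM or more. Leaving out cells 5, 6, 10, 11 and 14, added after seeing the data, removes by construction every cell with Agtr1a. No paired analysis was possible because all cells form a single group. All values come from 1 animal.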
